A study of Mus musculus with 4 samples.

Results

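The Kcnq1 imprinted domain lies on mouse chromosome 7 and holds the genes Kcnq1, Kcnq1ot1, Cdkn1c, Phlda2, Slc22a18, Tssc4, Cd81 and Ascl2. CTCF binding across it was read from ChIP-seq peak lists of mouse heart. Its members are the summits of the conservative peak list between the first and the last of these 8 genes, with 50 kb added on either side, which gives chr7:142916829-143553150 on mm10, a span of 636.3 kb. The domain held 33 summits in 31 peak intervals, of 54309 summits in the whole conservative list. The members are numbered here as sites 1 to 33 from low to high coordinate.

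The tissue was whole heart of adult female B6CASTF1/J mice aged 2 months, a first-generation cross of C57BL/6J and CAST/EiJ. Pool G (biological replicate 2) and pool H (biological replicate 1) each joined 2 heart biosamples and were sequenced as 2 technical libraries. All libraries share tissue, strain, sex, age and antibody, and there is no treated, mutant or input group among the lists. The lists do not separate the maternal from the paternal allele, so a site bound on 1 parental chromosome and a site bound on both look alike in them. The files used here hold no expression values, so the heart label could not be checked against marker genes, and whole tissue mixes muscle cells with every other cell type of the heart. Read depth is unknown.

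CTCF is a zinc-finger protein that binds a directional DNA motif and, with cohesin, anchors chromatin loops, most often between motifs that point toward each other. In imprinted domains a differentially methylated control region makes the parental chromosomes behave differently. The control region here, KvDMR1, coincides with the promoter of Kcnq1ot1, a long noncoding RNA transcribed antisense to Kcnq1 from inside a Kcnq1 intron. It is methylated on the maternal chromosome, and the RNA made from the paternal one silences neighbouring genes in cis, among them the cell-cycle inhibitor gene Cdkn1c and the placental growth regulator Phlda2.

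The sequences below carry the main layout of the domain. Each is read 5' to 3' along the strand of its match from GRCm38.p6, with 8 bases on either side. Capitals mark the 12-base CTCF core, the central stretch of the CTCF motif, matched with at most 1 mismatch within 100 bp of a summit. The first is site 23, the core-bearing site that follows the long empty stretch around Kcnq1ot1, at chr7:143464080-143464091 on the minus strand.
Site 23: caagtcggCCACCAGGGGGCagcatgaa
Sites 24 and 25 follow site 23 on the same strand, at chr7:143466498-143466509 and chr7:143470160-143470171, and make up with it the strongest group of the domain.
Site 24: gtctctgaCCACCAGGGGGCagaatgac
Site 25: gaccttggCCAGCAGGCGGCgcccaggt
Sites 3 and 27 are shown because their core is letter for letter that of sites 23 and 24. They lie on the plus strand at chr7:143008213-143008224, beside Tspan32os, and at chr7:143480700-143480711, inside Slc22a18.
Site 3: aacatcggCCACCAGGGGGCaccaaggt
Site 27: agggagttCCACCAGGGGGCgctacagt
Sites 15, 17 and 18 are further strong sites of the Kcnq1 introns, at chr7:143138988-143138999 on the minus strand, chr7:143151365-143151376 on the plus strand and chr7:143152492-143152503 on the minus strand.
Site 15: ccatgctgACAGCAGAGGGCaccagtga
Site 17: agttgtggTCACTAGAGGGCgacttctc
Site 18: aaaagtagCCACAAGATGGCaagcaggc
Sites 8 and 10 stand at annotated starts of Trpm5, at chr7:143086515-143086526 on the minus strand and chr7:143094909-143094920 on the plus strand. Site 8 also had a match on the plus strand, the only site of the domain with cores on both, and is counted by the minus-strand match, which was the better or nearer one.
Site 8: ctttactgCCACCAGGGAGCagaattgc
Site 10: aacattagCCACCAGAGGGCgccaagat
Sites 5 and 29 have a core in soft-masked sequence, which marks repeats in the assembly. Their cores lie at chr7:143045006-143045017 on the plus strand and chr7:143506915-143506926 on the minus strand.
Site 5: tgtcaaggCCAGAAGAGGGCattagatc
Site 29: tatggaggCCAGAAGAGGGCatccaatc
The last is the core at chr7:142919452-142919463 on the minus strand, inside Th, at the strongest candidate peak of the domain, which is not in the conservative list and is described with the candidates.
Th candidate: acagttggCCACATGGGGGCacttgtgg

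CTCF sites were dense in the domain and fell into 2 separate clusters with an empty stretch between them. The 33 summits gave 51.9 summits per Mb in the domain, against 23.8 per Mb on chromosome 7, which held 3462, and 20.6 per Mb over all chromosomes with peaks. Of 3975 non-overlapping tiles of the same length with a median of 10 summits, 367 (9.23%) held at least 33. The domain was thus denser than most tiles of its length, but not alone in its density. The domain was also poor in repeats and rich in G and C. Soft-masked sequence made up 19.2% of it, against 34.5% of chromosome 7, and its GC content was 47.9%, against 42% on the chromosome.

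Signal, the peak caller's deposited score, has no stated unit and grows with sequencing depth, so a signal is ranked only among the signals of its own list. Where pool G and pool H signals of a site stand side by side, they are a description, with the ratio over many peaks beside them. The median signal of the 33 summits was 304, with a range of 24.1 to 802, against a median of 286 over the whole list, whose lower and upper quartiles were 134 and 579. Of the domain summits, 17 lay at or above the list median, 11 at or above its upper quartile and 9 below its lower quartile. Their median signal thus stood at percentile 51.8 of the list: the domain was dense in sites but its median site was of average signal. That median includes sites 4, 20 and 33, with 24.1, 33.2 and 27.1. They each stand 0.20 kb from a stronger summit and lower the median. All 33 summits had the highest scaled score of the irreproducible discovery rate (IDR), 1000. The share of the whole list with that score is not given here, so it is not read as a trait of the domain. IDR rates how well a peak keeps its rank between replicates, and 540 on the scaled score stands for an IDR of 0.05.

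The core was found at 22 of the 33 domain summits (66.7%), beside 66.0% of the whole list, so the domain's share was that of the background. Of the 22, 12 matched without a mismatch and 10 with 1, and 11 lay on the plus and 11 on the minus strand; over the whole list 49.9% of cores were on the plus strand. The cores sat close to the summits, with a median distance of 6.5 bp from core centre to summit and a largest distance of 35.5 bp. Domain summits with a core had a median signal of 584 (95.6 to 802) and those without one a median of 117 (24.1 to 570). The weakest without a core, sites 4, 20 and 33, each stand 0.20 kb from a stronger summit, and they lower that median. The whole list showed the same order with a narrower gap, with medians of 361 with a core and 193 without. At or above the list median lay 15 of the 22 core-bearing domain summits and 2 of the 11 without a core. These 2 were site 28, with 570, and site 6 at Cd81, with 304. The whole list went the same way. A signal of 287, near its median of 286, was percentile 43 of its core-bearing summits and 64 of the rest. An exact core did not go with more signal than a core with 1 mismatch, since the domain medians were 559 and 584 and those of the list 340 and 379.

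**Figure D1:**
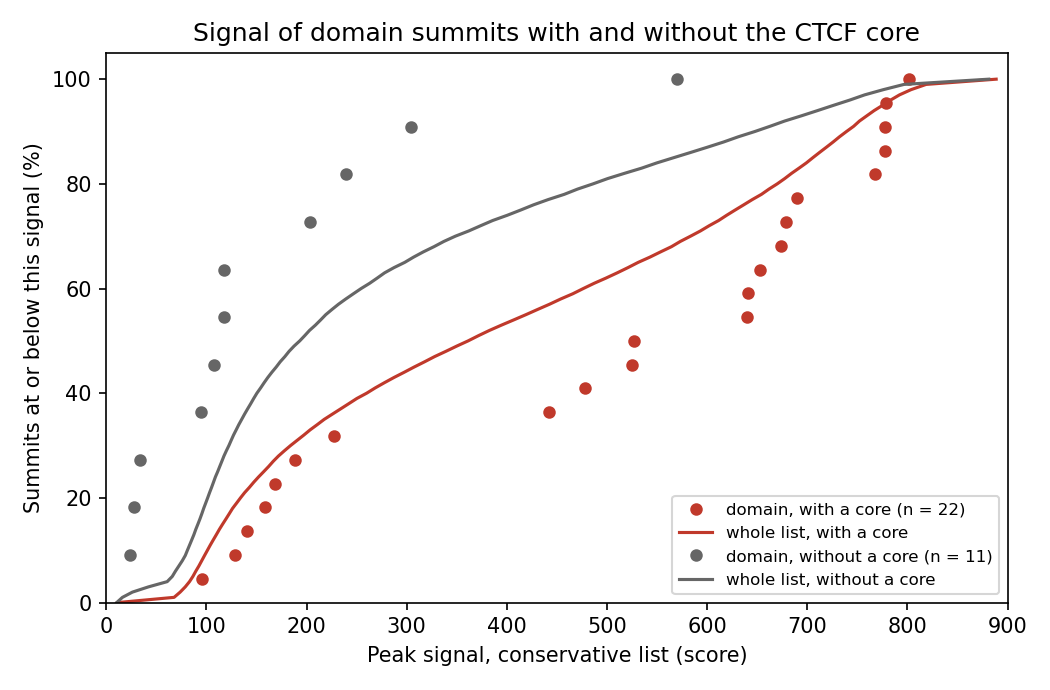
Cumulative share of summits (percent, vertical axis) by deposited signal (horizontal axis) for domain summits with a core (red points, n = 22) and without (grey points, n = 11), with the same curves for the whole conservative list as lines. Domain summits with a core had a median of 584 and lie to the right of the list's red line over most of the range, while those without had a median of 117 and lie to the left of the grey line.

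**Figure D2:**
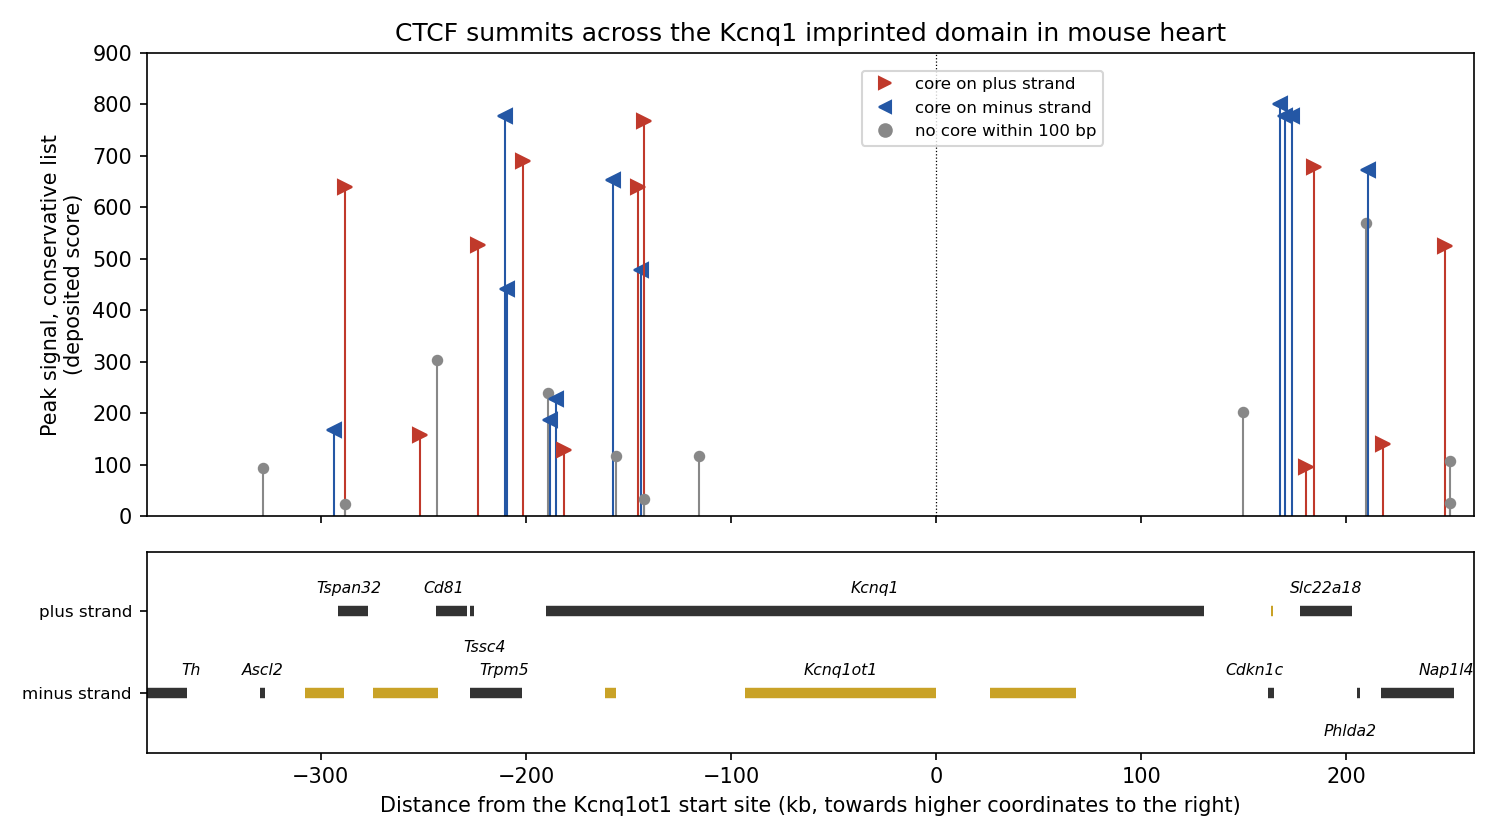
Deposited signal (vertical axis) of the 33 conservative summits by distance from the Kcnq1ot1 start site in kb (horizontal axis), with the strand of the core as arrowheads and summits without a core as grey points; the lower panel draws protein-coding genes in black and noncoding genes in ochre on their strands. A stretch of 265.1 kb around Kcnq1ot1 holds no summit. The summits at its edges, sites 21 and 22, have no core, and the nearest core-bearing sites beyond them, 19 and 23, point toward each other. The core of site 19 has 1 mismatch, and the nearest exact core before the stretch, at site 18, points the same way as site 23.

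The promoter and body of Kcnq1ot1 held no conservative summit, and neither did most of the Kcnq1 gene. Between site 21, whose summit is base 143180865, and site 22, at base 143445938, lay 265.1 kb without a conservative summit. This empty stretch held all 93.1 kb of Kcnq1ot1 (chr7:143203458-143296549, minus strand) and all of the antisense noncoding gene 4933417O13Rik. The start of Kcnq1ot1 was 115.68 kb from the nearest conservative summit. Within the domain the median spacing between summits was 6.04 kb and the next longest gap was 36.6 kb. Over the whole list the median spacing was 16.6 kb, and 1456 of 54289 gaps (2.68%) were at least as long as this one. Such gaps together held 35.1% of the sequence between summits, so a stretch of this length without a site was common in the genome as sequence, and rare only as a count of gaps. The empty stretch was 18.2% soft-masked, against 19.2% for the domain that includes it and 34.5% for chromosome 7. It held no unresolved bases and had a GC content of 46.1%, against 47.9% for the domain and 42% for chromosome 7.

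With at most 1 mismatch allowed, the cores beside the empty stretch pointed toward each other. Of core-bearing sites, the last before it was site 19 on the plus strand, with a signal of 768, and the first after it was site 23 on the minus strand, with 802, at 310.1 kb from each other. The signals of both were above 95% of the list, at percentiles 95.3 and 98.3. The summits of lower signal between them and the stretch, sites 20, 21 and 22, had no core and signals of 33.2, 117 and 204. The core of site 19 has 1 mismatch, and that of site 23 is exact. Among exact cores, the last before the stretch was at site 18, on the minus strand like site 23. The facing orientation thus depended on allowing a mismatch. Among the domain's 21 pairs of consecutive core-bearing sites, 6 (28.6%) were convergent, 7 (33.3%) divergent and 8 (38.1%) tandem, against 24.1%, 24.1% and 51.8% of 35826 pairs in the list. The pair around Kcnq1ot1 was the only one of the domain longer than 100 kb. In the whole list 1363 pairs were at least as far apart, of which 33.7% were convergent and 16.9% divergent. The lists show where CTCF was bound and which way its core pointed; they contain no measurement of contact between the sites.

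Kcnq1 codes for the pore-forming subunit of the potassium channel that carries the slow delayed rectifier current of the heart. Its body (chr7:143106362-143427042, plus strand, 320.7 kb) held 11 summits, all in the first part of the gene. Among 458 protein-coding genes of 241 to 428 kb, the median was 6 summits and 93 (20.3%) held 11 or more. Site 11 stood 15 bp downstream of an annotated start with a signal of 239, and site 12, which lies 56 bp downstream of another annotated start and inside intron 1 of the longest transcript, had 188. In that transcript, 5 summits lay in intron 1 (41.8 kb), with signals of 118 to 653, and 5 in intron 2 (33.1 kb), with signals of 33.2 to 768. Introns 3 to 15 held none, although introns 10, 11 and 15 spanned 65.9, 97.3 and 62.2 kb. The strongest intron sites were site 15 in intron 1, with 653, and sites 17, 18 and 19 in intron 2, with 640, 478 and 768. Those 3 lay within 3 kb of sequence with cores on the plus, minus and plus strand. Site 15 lies inside the antisense noncoding gene Gm28821, and site 16, with a signal of 118 and no core, lies 413 bp from the start of that gene.

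At the Kcnq1ot1 promoter itself a weak candidate peak was present in every ranked list, and it passed the threshold in some lists and not in others. Its summit, base 143296534, lies 15 bp inside the gene from the annotated start and in intron 11 of Kcnq1. The sequence around it is printed as the RefSeq promoter on GRCm38.p6, chr7:143296498-143296797 on the minus strand, with capitals for the 11 bases centred on the summit.
Kcnq1ot1 promoter: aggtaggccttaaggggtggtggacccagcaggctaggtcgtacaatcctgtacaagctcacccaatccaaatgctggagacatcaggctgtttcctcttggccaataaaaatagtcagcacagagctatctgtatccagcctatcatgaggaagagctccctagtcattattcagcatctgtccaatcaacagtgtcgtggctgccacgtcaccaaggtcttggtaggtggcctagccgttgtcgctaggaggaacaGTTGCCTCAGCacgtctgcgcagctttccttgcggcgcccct
In the ranked list matched between pools, which keeps candidates of any rank, this peak had a signal of 69.55 and a scaled IDR of 67, far below 540. The signals of the matched calls were 45.70 in pool G and 25.34 in pool H, a ratio of 1.80, against a median ratio of 1.40 over 6302 ranked peaks of like signal (62.6 to 76.5), of which 22.5% had a ratio at least as high. The peak passed in the pool G list, with a scaled IDR of 931, and in the second list made from both pools, with 979. It did not pass in pool H, where its scaled IDR was 78. Of the 6302 ranked peaks of like signal, 23.8% passed into the conservative list, and 2.94% of conservative summits had a lower signal than 69.55. In the 201 bp around the summit, the window used for CpG at the other sites, there were 12 CpG dinucleotides and a GC content of 57.21%. The promoter sequence of 300 bases has the summit at base 264, so it covers mostly 1 side of it. This sequence held 9 CpG dinucleotides, had a GC content of 53.3%, and its best match to the core on either strand had 3 mismatches. A core with at most 1 mismatch was found in 8.38% of 32851 RefSeq promoters of that length, so having none was the usual case, and 45.8% of them held at least 9 CpG. No match means only that these letters are not in this window.

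The rest of the empty stretch held 15 further candidates in the matched ranked list, each below the threshold, with signals of 10.78 to 56.10. A core stood at 2 of the 16 candidates, at summit 143267474 inside Kcnq1ot1, with a signal of 31.96, and at summit 143433487 downstream of Kcnq1, with 51.46. The candidate at summit 143412800, in Kcnq1 intron 15, passed in the second list of both pools with a scaled IDR of 749 and has no core. The candidates of the stretch were thus of low signal, and most did not pass in any thresholded list.

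The empty stretch also held exact copies of the core. There were 4, of which 3 lay outside soft-masked sequence. Copies per Mb over all chromosomes are not given here, so this number is not read as few or many. None of the 4 had a conservative summit within 100 bp, but this was all but fixed, since the stretch was defined by having no such summit. The rest of the domain held 20 copies, of which 12 had a summit. Outside soft-masked sequence it held 11, of which 10 were bound, beside 53.1% of 16609 such copies over all chromosomes. The 10 of 11 leave out the unbound copies of the stretch, and so overstate the share for the whole domain. The words differed between the places. The word CCACCAGGGGGC, the core of sites 3, 23, 24 and 27, was present in the domain 4 times and bound each time, and 83.2% of its 808 copies over all chromosomes were bound. The 3 copies outside soft-masked sequence in the empty stretch had the words CCAGGAGGTGGC, CCAGAAGATGGC and CCAGCAGAGGGC. Over all chromosomes, copies of these words outside soft-masked sequence were bound at 16.1%, 15.2% and 58.4%. The nearest ranked candidate of any signal was more than 2 kb from each of the 4 copies.

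**Figure D3:**
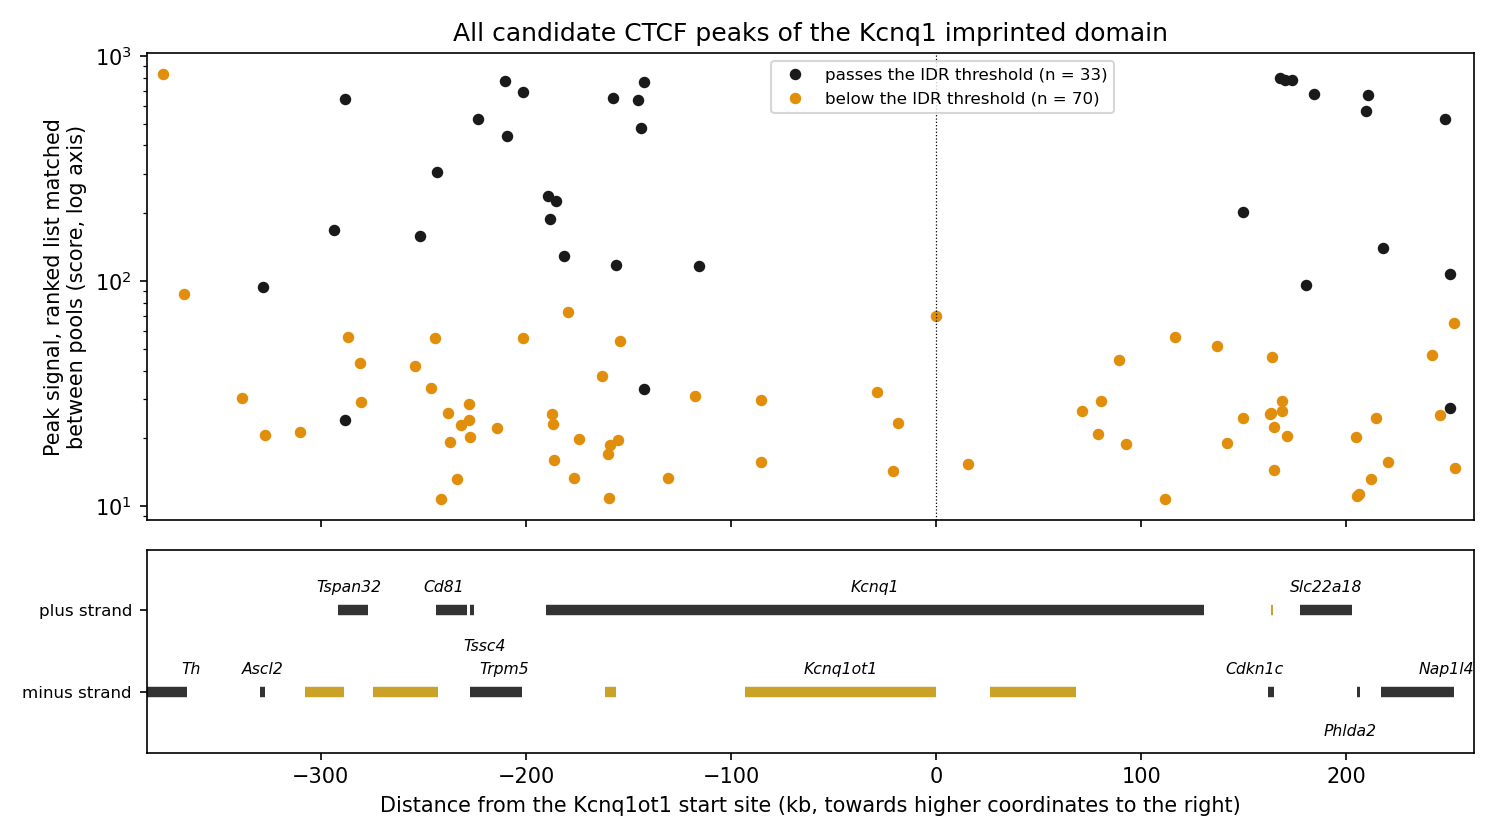
Signal on a log axis (vertical) of all 103 candidate peaks of the domain in the ranked list matched between pools, by distance from the Kcnq1ot1 start site in kb (horizontal), black where the peak passes the IDR threshold (n = 33) and orange where it does not (n = 70). The orange point at the dotted line is the Kcnq1ot1 promoter candidate with 69.55, and the orange point at the upper left is the Th candidate with 829.23.

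Downstream of the empty stretch lies the group of genes that includes Cdkn1c, Slc22a18 and Phlda2, with 12 summits in the 107.2 kb from site 22 to the end of the domain and a median signal of 548. The 21 summits before the stretch lay in the 264.0 kb from the start of the domain to site 21 and had a median of 239. Cores were balanced by strand in both, at 4 plus and 4 minus in the downstream cluster and 7 plus and 7 minus in the upstream one. All 6 intergenic summits of the domain were in the downstream cluster.

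The strongest group of conservative sites stood between Cdkn1c and Slc22a18. Cdkn1c codes for p57, an inhibitor of cyclin-dependent kinases, and is transcribed from the minus strand; Slc22a18 codes for a member of an organic cation transporter family and is transcribed from the plus strand, so their promoters face away from each other. Neither gene had a summit within 1 kb of a start. Site 23 lay 3039 bp and site 24 lay 5473 bp upstream of Cdkn1c, and site 25 lay 3572 bp upstream of Slc22a18. Their signals were 802, 779 and 778. All 3 cores were on the minus strand within 6.08 kb. In pool G their signals were 411, 416 and 415, and in pool H 384, 365 and 361, so they were even within each pool. Only 3.68% of the list reached 778, and this was the only run of 3 consecutive summits at or above that signal within 6.08 kb in the conservative list. Since signal and span were set from the group itself after its values were seen, a wider rule is given as well. The list held 111 runs of 3 consecutive summits that each reached the upper quartile and lay within 10 kb.

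Inside Slc22a18, site 27 had a signal of 679 and site 26 one of 95.6, both with cores on the plus strand. The 3 strong minus-strand cores and site 27 thus diverge across the Slc22a18 promoter, which itself had no summit nearer than 1.81 kb. Phlda2, which codes for a small pleckstrin-homology protein, had sites 28 and 29 at 2921 and 3778 bp upstream, with signals of 570 and 674. Site 28 has no core, and the core of site 29 lies in soft-masked sequence. Nap1l4, which codes for a histone chaperone, held 4 summits. Site 30, with 141, lies in an exon outside the coding sequence, and sites 31, 32 and 33, with 525, 107 and 27.1, lie in introns near its start.

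In the upstream cluster the highest single signal was at Trpm5, a cation channel gene known for taste signalling, which is not among the 8 listed genes. It had 4 summits within 1 kb of its annotated starts, sites 7 to 10, with signals of 527, 777, 442 and 690, all with a core. Tssc4, a small gene that overlaps Trpm5 on the other strand, had none within 1 kb, and its nearest was 3.51 kb away. Cd81, which codes for a tetraspanin of the cell surface, had site 6 at 97 bp upstream of a start, with 304. Ascl2, which codes for a transcription factor needed in the trophoblast, had site 1 at 436 bp downstream of a start, with 94.3. Tspan32, a further tetraspanin gene, held sites 3 and 4, with 641 and 24.1, both within 1 kb of a start of the antisense gene Tspan32os. Site 2, in Tspan32os, had 169. Site 5, in the noncoding gene R74862 and 7755 bp upstream of Cd81, had 158.

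A summit stood within 1 kb of a start of 4 of the 11 protein-coding genes that meet the domain, Ascl2, Cd81, Trpm5 and Kcnq1, beside 34.8% of 21728 protein-coding genes. Of the 8 listed genes, 3 had one (Ascl2, Cd81 and Kcnq1), while Kcnq1ot1, Cdkn1c, Phlda2, Slc22a18 and Tssc4 had none. Within 5 kb, 10 of the 11 protein-coding genes had a summit, Th being the exception at 37.15 kb. The share of all protein-coding genes at 5 kb is not given here, so this count is not read as a trait of the domain. Each summit was placed in 1 class, with starts taken before exons and exons before introns. Of 33 summits, 11 lay within 1 kb of an annotated start, beside 20.4% of the list, and some of these also lie in exons. Of the rest, 15 lay in introns (41.1% of the list), 1 in an exon (4.88%) and 6 between genes (33.6%). At each of the 3 listed genes, the summit nearest to a start had no core and was rich in CpG. In the 201 bp around the summit, site 1 at Ascl2 had 25 CpG, site 6 at Cd81 had 21 and site 11 at Kcnq1 had 17. Kcnq1 also had site 12 near a start, with a core and 2 CpG. Site 22 lay in intergenic sequence, 13.4 kb downstream of Cdkn1c's start but 1667 bp from the nearest annotated start of any gene type. It had 23 CpG and also no core. No core-bearing summit of the domain had more than 10, and 6.08% of the whole list had 17 or more. That share is over all summits, and the share among summits near a start is not given here. The CpG counts at starts are therefore not read as a trait of the domain. The 4 summits at Trpm5 starts, by contrast, had 1 to 3 CpG and a core each.

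Soft-masked sequence held 6 of the 33 summits, beside 21.8% of the list. The cores of sites 5, 14, 29 and 31 were soft-masked. Sites 5 and 29 carried the word CCAGAAGAGGGC, a word that mouse B2 short interspersed elements are known for. It occurred 50358 times over all chromosomes, 99.6% of them soft-masked, and 13.5% were bound. The domain held 9 copies, all soft-masked, and 2 were bound. Their signals were far apart, 158 at site 5 and 674 at site 29.

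The pools were alike at most sites, with pool G higher throughout. A pool G record overlapped 31 of the 33 summits, beside 91.4% of the list, and a pool H record 29, beside 89.6%, and 27 were in both. A record within 100 bp in both lists was present at 26 summits, where the ratio of pool G to pool H signal had a median of 1.20 and ran from 1.07 to 1.95; over the whole list the median was 1.22, with 5th and 95th percentiles of 1.03 and 1.66. Pool G was higher at all 26, and also at all 30 summits with a record in both ranked lists. A ratio more than 1.5-fold from the list median occurred at 1 domain summit, beside 2.12% of the list. This was site 16, at the Gm28821 start in Kcnq1 intron 1, with 79.02 in pool G and 40.51 in pool H. Ratios were larger at weaker sites, as they were in the list. The median was 1.28 at 11 domain summits below the list's median signal and 1.18 at 15 above it, against 1.33 and 1.17 in the list. Depth was not given for either pool, so a difference in depth and a difference in binding cannot be told apart.

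**Figure D4:**
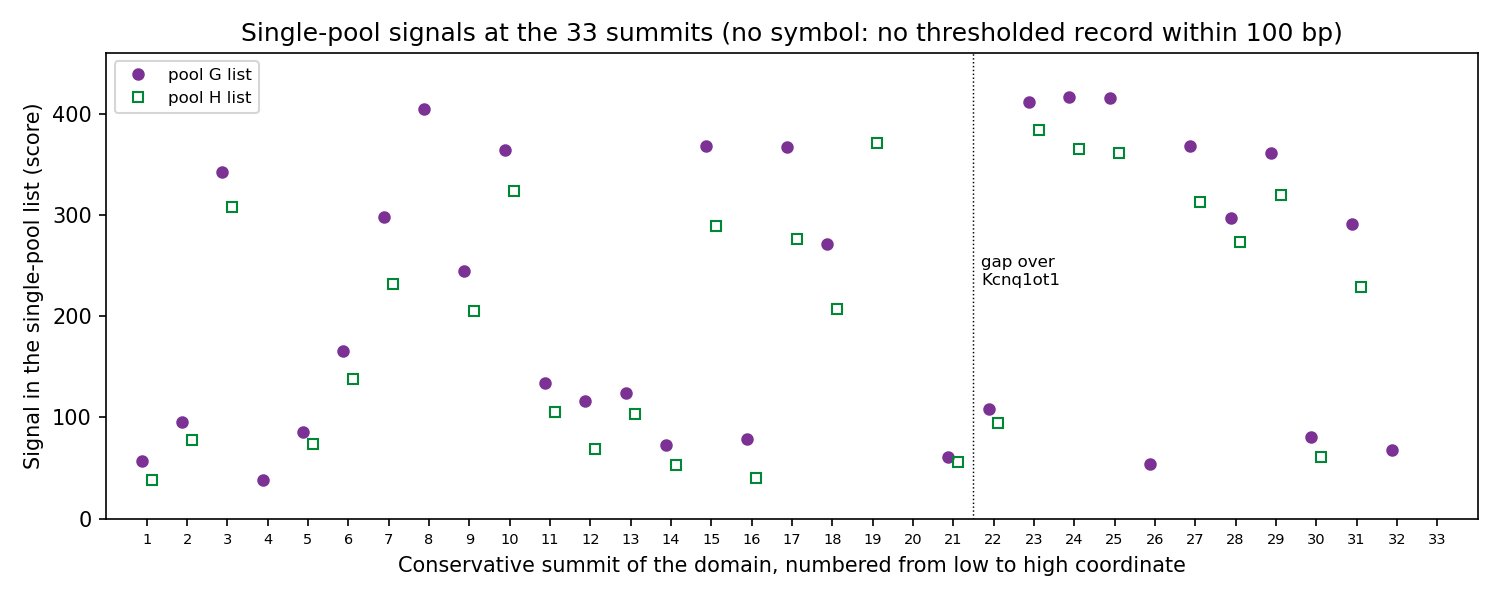
Signal (vertical axis) of each of the 33 domain summits in the pool G list (purple circles) and the pool H list (green squares), in order of coordinate (horizontal axis); the dotted line marks the empty stretch around Kcnq1ot1. Pool G is higher at every one of the 26 sites with both symbols, and sites that are high in pool G are also high in pool H.

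Some of the strongest peaks were missing from single lists although their ranked signals were high. Site 8 at Trpm5, with 777, had ranked signals of 404.75 in pool G and 376.89 in pool H, yet its scaled IDR in pool H was 248 and it is not in the thresholded pool H list. Site 19 in Kcnq1 intron 2, with 768, had 405.54 in pool G and 370.84 in pool H, yet its scaled IDR in pool G was 261 and the pool G list lacks it. The strongest candidate of all was missing from the conservative list itself. Its summit, base 142919435, lies in the Th gene, which codes for tyrosine hydroxylase, 11.69 kb downstream of a start. Its signal was 829.23, above that of every conservative summit of the domain, and it had 454.53 in pool G and 378.99 in pool H. It passed in the pool G list with a scaled IDR of 865 and in the pool H list with 993, but had 67 in the ranked list matched between pools and 359 in the second ranked list of both pools. Its core lies on the minus strand, 22.5 bp from the summit, as printed above.

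The Th candidate was the only one of the 70 domain candidates below the joint threshold that passed in both single-pool lists; 0.436% of 111616 such candidates over all chromosomes did. The other 69 had signals below 100. In the ranked list, 520 peaks had a signal at least as high as the Th candidate, and 243 (46.7%) of them passed. Of 7344 ranked peaks at or above 700, 94.3% passed, and in the domain 5 of 6. Of the domain's 103 ranked candidates, 33 (32.0%) passed, against 32.7% of 165935. The second list of both pools held 37 summits in the domain. A record of it lay within 100 bp of 32 of the 33 conservative summits, and 5 of its summits were further away. These 5 were at Th (signal 87.57), in Tspan32 (56.63), in Kcnq1 intron 1 (72.81, with a core on the minus strand), at the Kcnq1ot1 promoter (69.55) and in Kcnq1 intron 15 (56.10).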

How the data were processed

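CTCF ChIP-seq peak lists of mouse heart were used as deposited: 4 thresholded by IDR and 4 ranked without a threshold. Per the labels the build is mm10. Aligner and caller, not given in the sources used here, could not be checked. The signal of a peak was deposited as a score whose unit is not stated, and the IDR as a scaled score of at most 1000, where 540 stands for 0.05 and 830 for 0.01. Which list came from which pool was taken from the deposited readme texts. The conservative list of both pools was the main list. Sequence was GRCm38.p6 and annotation GENCODE M21; the promoter sequence is from RefSeq, whose table matched 6 of the 8 listed genes. The best core hit had the fewest mismatches, then lay nearest the summit. Single-pool records were matched within 100 bp, and overlap meant 1 shared base. Genes named are drawn from the 8 listed and every protein-coding or long noncoding gene with a symbol meeting the domain. The members and lists were chosen with earlier results of these data known. The comparisons are descriptions without tests, since summits of 1 list are not replicates and there were 2 pools. Tools were Python 3.11.15, numpy 2.4.6, pandas 2.3.3 and matplotlib 3.10.9; the core search was checked on planted cores. Chromosome Y, with no peaks, was left out. Core sequences are printed for some of the core-bearing sites, and that of site 19 is not reported here.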

Additional observations from a re-analysis of the deposited data

How the results depend on the processing

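The domain held 33 summits in the conservative list and 27 to 38 under the alternatives, which were the second list of both pools, either pool alone, a scaled IDR of at least 830, no flank or 100 kb, and counting intervals. Summits with the core numbered 22, and 21 to 28 with at most 2 mismatches, other windows or other lists. Allowing no mismatch gave 12, and a matrix learned from exact cores also gave 12, the same sites. Cores on the plus strand numbered 11, against 5 with no mismatch and 5 with the matrix. In both of these settings site 19 had no core, and the last core before the empty stretch was at site 18. It lies on the minus strand, as does that of site 23, so the cores beside the stretch no longer faced each other. At the Kcnq1ot1 promoter the conservative list had 0 summits, also within 5 kb; the second list of both pools had 1, leaving out a pool gave 0 to 1, and each of the 4 ranked lists had 1. Summits near a start numbered 11 within 1 kb and 23 within 5 kb. The percentile of the median signal was 51.8, and 42.7 to 63.6 elsewhere; Kcnq1 intron summits numbered 10, and 9 to 13. The cause of these differences was not tested. No paired analysis was possible because no result comes from a test. Signal has no unit and depth is unknown, so weak sites such as the Kcnq1ot1 candidate could not be told from background by counting error. The lists merge both alleles and all heart cell types.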
